A study of Mus musculus with 2 samples.

Results

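The NMDA receptor genes are the 7 mouse genes Grin1, Grin2a, Grin2b, Grin2c, Grin2d, Grin3a and Grin3b. They were picked by symbol and not by their values, though earlier results of these data were known. All 7 were found among the 43346 genes measured, with 34 of 103639 transcripts. RNA came from the brain of 1 male mouse of the inbred strain C57BL/6J, aged 10 weeks, and poly(A) RNA was sequenced in 2 libraries. The labels call the libraries technical replicates 1 and 2 and say that replicate 2 was made later. There was no treatment and no second group, so each comparison of libraries below has 1 library on each side and no replicate check, and each SD is over the 2 libraries of that mouse. The labels do not say which part of the brain was taken or whether both libraries came from the same RNA.

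NMDA receptors are glutamate-gated cation channels that also need glycine or D-serine to open, and that pass calcium when magnesium is driven out of the pore by depolarisation. They are built around GluN1, the obligatory glycine-binding subunit encoded by Grin1. GluN2 subunits (Grin2a to Grin2d) bind glutamate and set opening time and magnesium block, and GluN3 subunits (Grin3a, Grin3b) bind glycine and lower calcium flow. In rodent forebrain Grin2b is known as the early GluN2 gene and Grin2a as the one that rises after birth.

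The genes share a channel core but differ in base composition, and the values below are set beside it. The windows below are the 60 coding bases of highest GC content in 4 of the genes, shown to let the difference be seen in letters. They come from the GENCODE M21 transcripts on GRCm38.
Grin2b (chr6:135923053-135923112, minus strand): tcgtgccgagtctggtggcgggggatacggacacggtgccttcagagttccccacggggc
Grin1 (chr2:25313438-25313497, minus strand): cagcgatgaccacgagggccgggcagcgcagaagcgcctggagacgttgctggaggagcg
Grin2c (chr11:115250366-115250425, minus strand): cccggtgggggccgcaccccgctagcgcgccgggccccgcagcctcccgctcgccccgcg
Grin2d (chr7:45866426-45866485, minus strand): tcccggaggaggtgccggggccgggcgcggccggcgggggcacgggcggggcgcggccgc
Their GC content was 68.3% in Grin2b, 70% in Grin1, 88.3% in Grin2c and 91.7% in Grin2d. The Grin2d window lies near the start of the coding region and the Grin2c window towards its end, from coding base 2866 of 3717. The same measure gave 73.3% for Grin2a, 81.7% for Grin3a and 88.3% for Grin3b.

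Coding regions held 50.8% GC in Grin2a, 51.1% in Grin3a, 52.9% in Grin2b, 55.7% in Grin1, 62.4% in Grin2c, 64.0% in Grin3b and 67.3% in Grin2d. At the last base of codons, here called third-position GC, it ran from 59.1% in Grin3a to 78.5% in Grin2d, and the median of 13122 expressed coding genes was 60.7%. Of those genes 96.1% had a lower third-position GC than Grin2d, 91.5% a lower one than Grin2c and 85.4% a lower one than Grin1. Among the models measured, 1 per gene, Grin2b differed most between its coding part and its whole transcript. The model Grin2b-201 is 24060 bases long, of which 19614 are noncoding with 44.0% GC, so the transcript as a whole was at 45.7%. For Grin2a the model was Grin2a-202, and the longer Grin2a-206 was not measured. Between coding regions, Grin2c and Grin2d were 65.1% identical, Grin2a and Grin2b 65.0%, Grin3a and Grin3b 61.0%, and Grin1 no more than 55.0% to any other member. The deposited SD of the estimated count was 0 for all 7 genes in both libraries.

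Replicate 1 held 18302506 counts and replicate 2 held 17828479, and a TPM (a length-scaled level with the same total in each library) of at least 1 was reached by 11608 and 14780 genes. Neuronal RNA was plain in both libraries: the 4 neuron markers summed to 4000 and 3773 TPM, led by the vesicle fusion gene Snap25 at 3457 and 2764. Marker sums in TPM were 202 and 1696 for glutamatergic neurons, 681 and 1526 for astrocytes, 1229 and 1521 for oligodendrocytes and their precursors, 61.2 and 131 for microglia and 15.1 and 79.2 for endothelium. Within these lists the markers did not move together: by the test described next, 2 of 4 glutamatergic markers were higher in replicate 2 and 2 lower. Slc17a7 (25.5 and 466 TPM) and Nrgn (35.5 and 1125 TPM) were higher, and Slc17a6 (54.6 and 40.9 TPM) and Neurod6 (86.2 and 64.3 TPM) were lower. Of all tested genes 34.5% were called higher and 24.0% lower, which stands beside each marker list here and below. Of neuron markers 2 of 4 were higher and 1 lower. The lower one was Snap25, which made up most of the near equal neuron sum. Of astrocyte markers 2 of 4 were higher and 2 lower, of microglial ones 1 of 3 higher (C1qa, 1.95 and 70.5 TPM) and 1 lower (P2ry12, 47.7 and 34.0 TPM), of oligodendrocyte ones 1 of 4 higher and 0 lower and of endothelial ones 2 of 3 higher and 0 lower. The markers of highest mean TPM were Aldoc (199 and 1022 TPM) for astrocytes and Cldn5 (0.40 and 48.6 TPM) for endothelium. With library totals the lower calls of these lists ended. The 2 higher glutamatergic markers, Slc17a7 and Nrgn, had transcripts of 58.5% and 58.7% GC. The 2 lower ones, Slc17a6 and Neurod6, had 42.9% and 41.9%. In bulk tissue, fewer cells of a type and less RNA per cell cannot be told apart, and no cause of the marker differences was tested. Calls between libraries used an exact binomial test on rounded expected counts over 16320 genes, with library sizes scaled by TMM, and needed a Benjamini-Hochberg adjusted p under 0.05 and a 2-fold difference. The test compares these libraries and not conditions. Using library totals in place of TMM moved every log2 count ratio up by 0.61, and both are given where the call differs.

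Of the 6 genes with enough counts to test, 3 (Grin1, Grin2c and Grin2d) were called higher in replicate 2, 1 (Grin2b) was called lower, and Grin2a and Grin3a were not called. Among all tested genes 34.5% were called higher and 24.0% lower, so both directions were common. With library totals 4 of the 6 were higher and 0 lower, beside 43.6% and 7.90% of all genes. The lower call of Grin2b lay at the 2-fold limit and ended with totals and with DESeq2 size factors.

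Grin1, which encodes the obligatory subunit, was far higher in replicate 2 (ENSMUSG00000026959.9, chromosome 2, 25291181 to 25319187, minus strand). Its level was 9.43 TPM in replicate 1 and 184.6 in replicate 2 (97.0 ± 124, SD, n = 2), on 267 and 7269 counts. Its share of library counts was 27.9 times as large in replicate 2 (95% counting interval 24.7 to 31.7). That share uses library totals, by which the log2 count ratio was 4.80, and with TMM it was 4.19. The antisense gene Grin1os, which overlaps it, had 0 counts in both libraries.

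Grin2b, which encodes a glutamate-binding subunit with slow closing, behaved differently (ENSMUSG00000030209.10, chromosome 6, 135713233 to 136173511, minus strand). Its level was 54.4 TPM in replicate 1 and 42.1 in replicate 2 (48.2 ± 8.65, SD, n = 2), on 10939 and 8104 counts. Its SD was the smallest relative to the mean among the 7 genes. The log2 count ratio was -1.01 with TMM, -0.95 with DESeq2 size factors and -0.39 with library totals.

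Grin2a encodes the subunit with faster closing that is typical of mature synapses (ENSMUSG00000059003.8, chromosome 16, 9567898 to 9995560, minus strand). Its values were 6.10 TPM in replicate 1 and 20.1 TPM in replicate 2 (13.1 ± 9.86, SD, n = 2), with 398 and 1001 counts. Its share of counts was 2.58 times as large in replicate 2 (2.30 to 2.91). The log2 count ratio was 0.76 with TMM, not called, and 1.37 with totals, called higher.

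Grin2c and Grin2d had few counts in replicate 1 and were called higher in replicate 2. Grin2c is known for cerebellar granule cells (ENSMUSG00000020734.9, chromosome 11, 115249169 to 115267243, minus strand). It had 10 and 723 counts, or 0.17 and 15.9 TPM (8.04 ± 11.1, SD, n = 2). Its share of counts was 74.2 times as large in replicate 2 (40.1 to 155). Its log2 count ratio, 5.53 with TMM and 6.14 with totals, was the highest of the 6 tested. The 4 cerebellar granule cell markers summed to 18.1 TPM in replicate 1 and 28.6 in replicate 2. Of these 0 were called higher and 2 lower, all 4 had counts in both libraries, the list was led by Zic1 at 12.9 and 15.7 TPM, and Gabra6, typical of these cells, had 11 and 2 counts. With totals 1 was higher and 1 lower.

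Grin2d, known from brainstem, diencephalon and interneurons (ENSMUSG00000002771.10, chromosome 7, 45831883 to 45878378, minus strand), had 5 and 258 counts. That was 0.07 and 5.09 TPM (2.58 ± 3.55, SD, n = 2), and the share of counts was 53.0 times as large in replicate 2 (22.4 to 165). The interval overlapped that of Grin2c. The 5 markers of GABAergic interneurons summed to 442 and 1108 TPM, with Gad1 highest in replicate 1 (178.5 and 258.7 TPM) and Sst in replicate 2 (97.6 and 568 TPM), and with 2 called higher and 2 lower with TMM. With totals 2 were higher and 0 lower. The part of these cell types in the Grin2c and Grin2d values was not tested.

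Of the GluN3 genes, Grin3a was measured in both libraries and Grin3b was at or under the floor of 3 counts. Grin3a, a subunit of early life and some adult neurons (ENSMUSG00000039579.11, chromosome 4, 49661611 to 49845744, minus strand), was at 7.52 and 11.0 TPM (9.25 ± 2.45, SD, n = 2), on 771 and 835 counts. Of the 6 tested genes it had the most equal counts, and its log2 count ratio was -0.46 with TMM and 0.15 with totals, with no call by either. Grin3b, known from motor neurons (ENSMUSG00000035745.4, chromosome 10, 79970715 to 79977190, plus strand), had no more than 1 count, in replicate 2. The 0 counts of replicate 1 leave room for 3, or 1.64e-05% of its total, by counting error alone, and no fold is given. Tmem259, whose exons overlap those of Grin3b, had 3 and 1268 counts. The 5 cholinergic markers, listed for motor neurons but not limited to them, summed to 8.91 and 9.42 TPM. They were led by Slc5a7 at 5.53 and 3.55 TPM, and 2 of them had 0 counts in replicate 1. Of the 4 tested, 2 were called higher and 2 lower, and Mnx1, a motor neuron transcription factor, had 0 and 1 counts. The sum thus does not measure motor neurons alone, and the part of such cells in the Grin3b values was not tested.

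**Figure D1:**
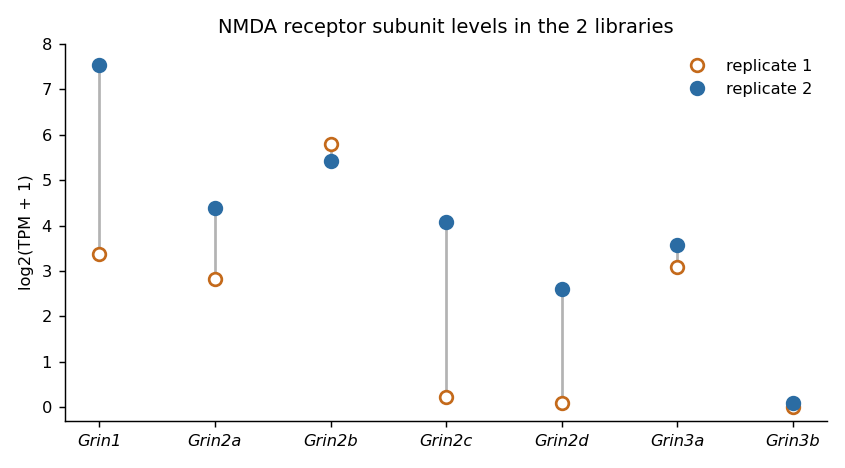
Level of each NMDA receptor gene (horizontal axis) as log2(TPM + 1) in replicate 1 (open) and replicate 2 (filled), joined by a grey line. Grin1 and Grin2c have the longest lines, Grin2b alone is lower in replicate 2, and Grin3b is at 0 and 0.06 TPM.

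The order of the genes was not the same in the libraries. In replicate 1 it was Grin2b, Grin1, Grin3a, Grin2a, Grin2c, Grin2d and Grin3b from highest to lowest TPM. In replicate 2 it was Grin1, Grin2b, Grin2a, Grin2c, Grin3a, Grin2d and Grin3b. The tables give an interval around the posterior mean TPM, whose level the headers do not state. Within replicate 1 the intervals of neighbours did not overlap from Grin2b (47.1 to 55.0 TPM) through Grin1 (8.05 to 12.6), Grin3a (6.64 to 7.66) and Grin2a (5.25 to 6.47), while those of Grin2c, Grin2d and Grin3b overlapped. Within replicate 2 no neighbours overlapped. Over both libraries Grin2b and Grin2a, at means of 48.2 and 13.1 TPM, differed by more than their SDs. Grin2a, Grin3a and Grin2c, at means of 13.1, 9.25 and 8.04 TPM, did not differ beyond their SDs, and the SDs of Grin1, Grin2c, Grin2d and Grin3b were larger than their means.

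Subunit ratios, which compare genes inside a library on the TPM scale, differed between the libraries. Grin2b was 8.91 times Grin2a in replicate 1 (95% counting interval 8.06 to 9.87) and 2.10 times Grin2a in replicate 2 (1.97 to 2.25). These intervals cover the counting error of the gene totals only. They leave out how counts were split among long and short transcript models, which changed the ratio more. With models of a complete coding region alone, defined below, it was 5.40 in replicate 1 and 1.59 in replicate 2. Grin1 was 0.138 times the sum of the GluN2 and GluN3 genes in replicate 1, at 9.43 against 68.2 TPM. In replicate 2 it was 1.96 times that sum, at 184.6 against 94.2 TPM. The sum of the other subunits differed far less than Grin1 did, and Grin2b made up 54.4 and 42.1 TPM of it. Singly, Grin2c and Grin2d differed more by TPM than Grin1, 93.6 and 72.7 times against 19.6. They had only 10 and 5 counts in replicate 1.

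Among the GluN2 genes, the share of Grin2b was 89.6% of TPM in replicate 1 against 50.6% in replicate 2. Grin2a held 10.0% and 24.1%, Grin2c 0.280% and 19.1%, and Grin2d 0.115% and 6.12%. Grin2b was the leading GluN2 gene in both libraries and Grin2a was second in both.

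**Figure D2:**
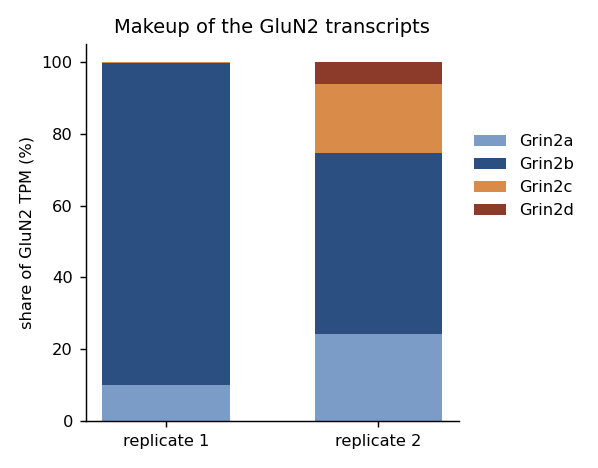
Share of the summed TPM of the GluN2 genes (vertical axis, %) held by each gene in each library. Grin2b fills 89.6% of the bar of replicate 1 and 50.6% of that of replicate 2, where Grin2c holds 19.1%.

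A gene's TPM is the sum over its transcript models. Models with a complete coding region (at least 90% of the gene's longest) were separated from short or noncoding ones, a split chosen after the transcript tables were seen. For Grin2b the complete model Grin2b-201 had nearly equal TPM, 32.1 in replicate 1 and 31.6 in replicate 2. It held 10806 and 8023 counts, nearly all of the gene's 10939 and 8104. The gene's lower TMM-scaled count thus lay in this model, whose TPM did not show it. The rest of the gene's TPM lay in short models of its 5′ end. Grin2b-206, with 591 bases, held 22.2 TPM on 130.4 counts in replicate 1 and 0 in replicate 2. Grin2b-204, with 703 bases, held 0 and 7.11 TPM, the latter on 39.8 counts, and Grin2b-203, with 630 bases, 0 and 2.21 TPM. These few counts weigh heavily in TPM because the models are short.

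For Grin1 the same split widened the difference between libraries. Its 8 complete models summed to 3.42 TPM in replicate 1 and 172.4 in replicate 2, on 183 and 7048 counts. Grin1-213, a 731-base noncoding model of 3 exons, held 51.1% of the gene's TPM in replicate 1 on 37.9 counts and 1.23% in replicate 2 on 13.4. Grin1-214, which is 3437 bases long and also noncoding, held 6.49% and 2.52%. Without such models Grin1 was 50.4 times as high in replicate 2 by TPM, against 19.6 times for the gene as a whole.

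In Grin2a, Grin2c and Grin3a complete models held at least 93.4% of TPM in each library, and in Grin2d they held 100% and 88.2%. The only count of Grin3b, in replicate 2, was in Grin3b-203, a model without the complete coding region. Grin2a-202 held 97.5% of the TPM of Grin2a in replicate 1 and 99.3% in replicate 2. Grin3a-201 held 84.6% and 84.3% of that of Grin3a, and Grin3a-202, whose coding region is longer, stood at 0.90 and 1.01 TPM. The 3799-base noncoding Grin3a-203 held 0.620% and 6.07%. Grin2c-201 held all 10 counts of replicate 1 and 83.9% of TPM in replicate 2, the rest being Grin2c-202, which codes for the same length. Of Grin2d, Grin2d-201 held all 5 counts and 88.2% of TPM, and a 648-base model that GENCODE M21 no longer lists held 11.8% in replicate 2 on 3 counts. With complete models alone, Grin2b was 5.40 times Grin2a in replicate 1 and 1.59 times in replicate 2.

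**Figure D3:**
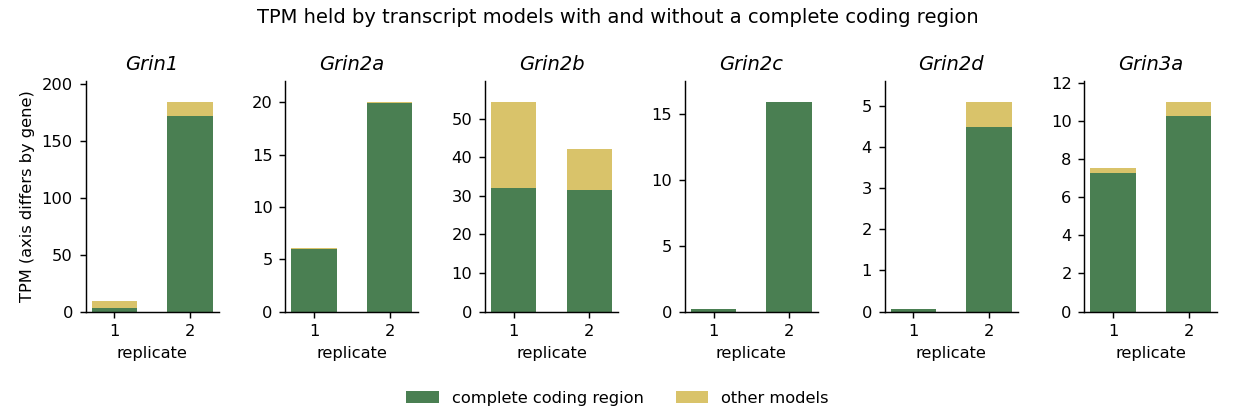
TPM (vertical axis, a separate scale from 0 for each gene) in models with a complete coding region (green) and in other models (yellow), by replicate. The green bars of Grin2b are level at 32.1 and 31.6 TPM, on 10806 and 8023 counts. Most of the replicate 1 bar of Grin1 is yellow.

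Grin1 is spliced at 3 places that change the protein: the N1 cassette in the amino-terminal domain, and the C1 and C2 cassettes of the carboxyl tail, where removal of C2 opens another ending called C2′. N1 is known to change sensitivity to protons and polyamines, and C1 carries sites for retention in the endoplasmic reticulum and for phosphorylation. The 8 complete models are the 8 combinations. The alternative sequences on GRCm38 are printed because the shares below depend on reads that cover them; for C2 the coding part of the removed 356 bases is given.
N1 (chr2:25311343-25311405, minus strand, 63 bases): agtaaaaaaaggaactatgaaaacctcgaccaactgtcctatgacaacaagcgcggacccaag
C1 (chr2:25294438-25294548, minus strand, 111 bases): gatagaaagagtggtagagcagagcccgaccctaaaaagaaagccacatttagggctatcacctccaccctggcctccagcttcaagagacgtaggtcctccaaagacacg
C2 (chr2:25292371-25292484, minus strand, 114 bases): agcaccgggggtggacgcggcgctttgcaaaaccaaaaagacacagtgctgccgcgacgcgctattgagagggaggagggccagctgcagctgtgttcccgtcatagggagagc
Their GC content was 44.4% for N1, 52.3% for C1 and 62.3% for C2.

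In replicate 2 the transcripts without N1 were the more abundant ones. N1 was in 25.6% of the TPM of the complete models, C1 in 47.9% and C2 in 30.7%, and the posterior means gave 26.8%, 48.9% and 30.9%. The most abundant forms were Grin1-206 (without N1, with C1, ending C2′) at 46.4 TPM and Grin1-205 (without N1 and C1, ending C2′) at 39.2 TPM. Grin1-207 (with N1, without C1, ending C2′) was at 33.7 TPM, Grin1-201 (without N1, with C1 and C2) at 25.7, Grin1-202 (without N1 and C1, with C2) at 16.9 and Grin1-204 (with all cassettes) at 10.4.

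The single forms moved more between TPM and posterior mean than the cassette shares did in replicate 2. By posterior mean, Grin1-205 was at 44.4 TPM with a deposited interval of 31.9 to 60.6, and Grin1-206 at 39.0 with 27.2 to 50.3, so their order was not resolved. Grin1-203 and Grin1-208, at 0 and 0.12 TPM, had upper bounds of 11.1 and 12.5. In replicate 1 the complete models held 183 counts and the scales gave different cassette shares. By TPM N1 was in 0% and C1 in 100% of the complete models, whereas by posterior mean they were in 46.6% and 61.6%.

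**Figure D4:**
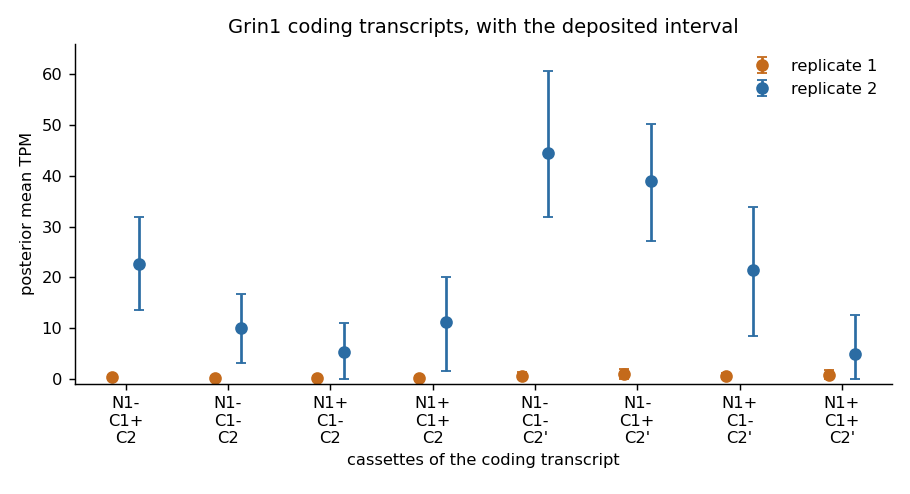
Posterior mean TPM (vertical axis) of the 8 coding forms of Grin1, named by their cassettes, with the deposited interval as bars, in replicate 1 (orange) and replicate 2 (blue). In replicate 2 the forms without N1 that end in C2′ are highest, at 44.4 and 39.0 TPM, and their bars overlap. All forms are below 1 TPM in replicate 1.

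Set against base composition, the 6 tested genes fell in order. By transcript GC content, weighted by TPM, they ran from Grin2b (46.3%) through Grin3a (49.1%), Grin2a (52.3%), Grin1 (58.8%) and Grin2c (61.3%) to Grin2d (65.0%). Their log2 count ratios with TMM in that order were -1.01, -0.46, 0.76, 4.19, 5.53 and 4.98. The ratio was thus higher at each step but the last, where the counting intervals of Grin2c and Grin2d overlapped. This is a description of 6 genes, which share the libraries, and has no test.

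Beside genes of like GC content, Grin2a, Grin2c and Grin3a lay within the quartiles, Grin1 above them and Grin2b and Grin2d below. The following are log2 ratios of TPM + 1, which understate low genes, over all genes whose mean TPM reached 1 in a GC class 5 points wide. Grin2a had 1.57, where the median of 3678 genes with 50 to 55% GC was also near 1.6 and the quartiles were 1.07 and 2.25. Grin3a had 0.49 and Grin2b -0.36, where the median of 3764 genes with 45 to 50% was 0.41 and the quartiles 0.08 and 0.79.

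Grin2b lay below that range, with 5.77% of its class lower still. Its ratio of -0.36 included the short models, and with complete models alone it was -0.02, still under the lower quartile of 0.08. The GC content of Grin2b, 46.3%, lay near the lower edge of its class. Genes with 40 to 45% GC had a median of -0.31 and quartiles of -0.55 and -0.07. Grin1 had 4.15, where the median of 2758 genes with 55 to 60% GC was 3.03 and the quartiles 2.21 and 3.91, and 80.8% of the class was lower. Grin2c had 3.85 and Grin2d 2.51, where the median of 552 genes with 60 to 65% was 3.72 and the quartiles 2.69 and 4.62. With a smooth trend on GC content removed, the log2 count ratios of the 6 genes lay between -0.82 (Grin2d) and 0.71 (Grin2c), Grin1 was at 0.17, and 0 of them passed 2-fold.

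**Figure D5:**
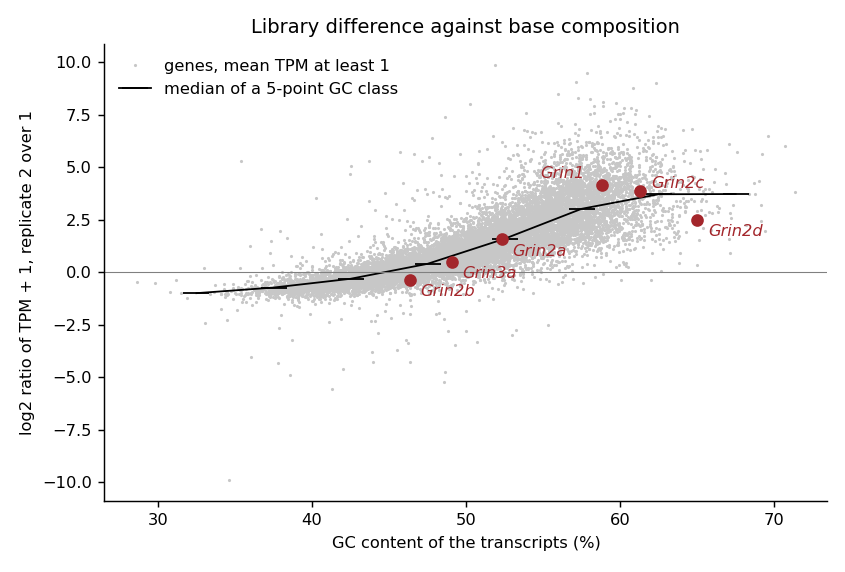
Log2 ratio of TPM + 1 in replicate 2 over replicate 1 (vertical axis) against the GC content of each gene's transcripts (horizontal axis, %), for genes whose mean TPM reached 1 (grey), the median of each 5-point class (black) and 6 NMDA receptor genes (red). Grin2a, at 1.57, lies on the class median, and Grin2b lies under it, -0.36 against 0.41.

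The genes nearest to each member in both libraries, by Euclidean distance in log2(TPM + 1) over the 2 libraries among 14134 other genes, had like levels by construction. For Grin1 they were Lynx1, at 8.86 and 182.8 TPM, and Rtl8b, at 8.68 and 182.2 TPM. For Grin2b they were Iqcb1 (54.4 and 42.5 TPM) and Brox (54.4 and 41.7 TPM), for Grin2a Prelid3a and Acad8, and for Grin3a Mettl8 and Spice1. Grin2c was nearest to Kcnh2 and Xylt2, and Grin2d to Nectin2 and Sox13. Distances ran from 0.012 for Grin3a and Mettl8 to 0.11 for Grin1 and Rtl8b.

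Genes that work with NMDA receptors were read from a list of 42 by role, all measured. Of these 23 were called higher in replicate 2, 8 lower and 11 neither, beside the 34.5% and 24.0% of all genes. With the GC trend removed 8 were higher and 2 lower, with no share of all genes to set beside them. With library totals 25 were higher and 4 lower, beside 43.6% and 7.90% of all genes. The median log2 ratio of TPM + 1 was 1.70, and that of all 14229 genes whose mean TPM reached 1 was 0.88.

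Genes of co-agonist supply and clearance had 7 of 8 higher and 0 lower, beside 34.5% and 24.0% of all genes. The 7 had transcripts of 50.1% (Shmt1) to 57.4% GC (Shmt2), and Srr had 47.3%. Among genes whose mean TPM reached 1, 49.7% were called higher at 50 to 55% GC and 91.7% at 55 to 60%. At 45 to 50% GC 3.32% were. Srr, the enzyme that makes D-serine, was the exception, at 37.7 and 51.0 TPM and not called. Phgdh, the first enzyme of serine synthesis, was higher, at 2.97 TPM in replicate 1 and 75.7 in replicate 2.

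Scaffolds had 2 of 7 higher and 2 lower, beside 34.5% and 24.0% of all genes. Dlg4, which encodes the postsynaptic scaffold PSD-95, was higher, at 9.78 and 345.1 TPM, and Homer1, a scaffold that ties metabotropic receptors to Shank proteins, was lower, at 179.4 and 119.6 TPM. With totals 2 were higher and 1, Homer1, lower.

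Kinases, phosphatases and other signalling genes had 8 of 13 higher and 2 lower, beside 34.5% and 24.0% of all genes. Camk2a, the kinase that docks on GluN2B, was higher, at 167.0 and 790.9 TPM, as was Src, a kinase that acts on the receptor, at 1.21 and 38.8 TPM. The calcineurin catalytic genes Ppp3ca, at 481.6 and 585.9 TPM, and Ppp3cb, at 302.7 and 183.8 TPM, were lower by counts. Both lower calls ended with totals, which gave 9 higher and 0 lower. The TPM of Ppp3ca was higher in replicate 2 although its TMM-scaled count was lower.

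Trafficking and anchoring genes had 6 of 14 higher and 4 lower, beside 34.5% and 24.0% of all genes. Grina, a gene named for an NMDA receptor association, was higher, with 56 and 5062 counts, or 2.58 and 310.1 TPM. Kif1bp, a kinesin-binding protein gene, was at 61.6 and 123.0 TPM and not called. Lin7c, a small scaffold of the receptor's transport complex, was lower, at 60.7 and 35.3 TPM. With totals 7 were higher and 3 lower.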

How the data were processed

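Per the file headers, the authors deposited for each library a gene and a transcript table with the columns RSEM writes. Expected counts, which need not be whole, were deposited by the authors with posterior means. The authors also deposited TPM, for genes and for transcripts, and the bounds of its interval, treated here as a signal that is never negative. The transcript tables the authors deposited give each transcript's percent of its gene's TPM. The deposited listing names mm10 and GENCODE M4. Aligner, versions and strand setting were not given in the sources used here.

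Rows without an Ensembl gene identifier, which held 0 and 1 counts, were left out. Symbols, positions and sequences came from GENCODE M21 on GRCm38, matched without version: 42462 genes had a symbol and 97.9% of transcripts a sequence. Coordinates are those of M21. Sequence tables for proteins were not used. Some items are not reported here.

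Expected counts were rounded. The two-sided exact binomial test ran over genes whose summed count reached 10, with TMM sizes (edgeR 4.0.16, R 4.3.3) and 0.5 added to counts for folds. The test was also run on simulated data. The quasi-likelihood test of edgeR and DESeq2's test could not be fitted with 1 library a side. Log2 TPM ratios used a pseudocount of 1, trends lowess with a fraction of 0.2 (statsmodels 0.14.6), intervals exact Clopper-Pearson limits at 95%, which cover counting error only, and alignments MAFFT 7.526. Other steps used Python 3.11.15 with scipy 1.17.1, pandas 2.3.3, numpy 2.4.6 and matplotlib 3.10.9.

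The members, lists and tests were chosen with earlier results of these data known. The rule for names takes all 7 members (Grin3b, with 1 count, has no call, GC class or nearest genes), of each member the transcripts with at least 5% of its TPM in either library, of each partner role the 2 genes of highest mean TPM and those of highest and lowest log2 ratio, the 2 nearest genes of each member with a mean TPM of at least 1, and the gene of highest mean TPM in marker lists. Gabra6, Mnx1, Gad1, C1qa and the glutamatergic markers other than Nrgn were named after their values were seen, as were the Grin1 forms under 5%. Alternatives covered library sizes (totals, DESeq2 1.42.0 size factors), the count minimum, posterior means, a 4-fold limit, GC and length trends, pseudocounts, lengths and leaving out a library.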

Additional observations from a re-analysis of the deposited data

How the results depend on the processing

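Grin1, Grin2c and Grin2d were called higher under every scaling, count minimum, fold limit and length correction run. With the GC trend removed, 0 members passed 2-fold higher and 0 lower. The 1 lower call, Grin2b, became 0 with library totals, DESeq2 size factors, no count minimum, a 4-fold limit, the length trend removed, or TMM over all genes, the last chosen after seeing the data, and held with posterior mean counts. Of the partner genes, 8 were higher and 2 lower with the GC trend removed, 4 were lower with totals and 0 were lower at 4-fold. No share of all genes is given for the GC trend or the 4-fold limit, so those counts have no background. The log2 ratio of Grin3a was 0.49 by TPM and -0.45 by TMM-scaled CPM, so its direction turned with the scale. The mean level of Grin2b was 31.8 TPM with complete models alone, and that of Grin3b 0.175 by posterior mean, which is above 0 even for models with 0 counts. C1 was in 40.5% of all Grin1 TPM as a mean over libraries, 32.5% by posterior mean and 74.0% among coding transcripts. The last is the mean of 100% in replicate 1, on 183 counts, and 47.9% in replicate 2, on 7048 counts. No paired analysis was possible because there is 1 group. Counts of 10 for Grin2c and 5 for Grin2d in replicate 1, the library with more counts in all, give wide counting intervals, and the cause of these low counts was not tested.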

Other observations

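GENCODE M21 lists models of these genes that the deposited M4 tables do not hold. Grin2a-206 is 14634 bases long, against 4820 for the Grin2a-202 of the tables, and reaches from 9567898 to 9994923 on chromosome 16. The transcript GC content given for Grin2a, and so its place by GC content, leaves this model out. Grin2d-203 is 5244 bases long and codes for the same 3969 bases as Grin2d-201. How many reads lie only in the added models was not tested. For Grin2b the table's Grin2b-201 is 23640 bases long and the later one 24060.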
